A study of Mus musculus with 14 samples.

Results

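The mitochondrial ribosomal protein genes were taken as the protein-coding genes of the mouse build GRCm38 whose symbol is Mrpl or Mrps followed by a number, with pseudogenes left out. This gave 78 of 21887 protein-coding genes, 49 with an Mrpl and 29 with an Mrps symbol. They were followed in lists of ChIP-seq peaks of GATA2 and RUNX1, a pair of transcription factors of blood progenitors, and of polymerase II carrying the serine 2 phosphate of elongation (S2P). The cells were G1ER, a mouse erythroblast line without endogenous GATA1, in which a GATA1 fusion can be switched on with estradiol. One group was wild type (WT). The other carried a knockout of Chd7 (KO), the gene of a chromatin remodelling ATPase, and both lacked endogenous GATA1. The labels name estradiol for a differentiation assay only, and do not say whether the cells used for ChIP were treated, nor how many knockout clones were used. Each factor was profiled in 1 library of WT and 1 of KO. The 2 S2P replicates of a genotype share 1 list, and how they were combined is not stated. Replicate spread could therefore not be measured, no difference between WT and KO was tested, and each comparison is between lists. Intervals below are 95% intervals and cover counting error only.

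Mitochondria keep their own ribosomes, which translate the few proteins encoded in mitochondrial DNA, all of them membrane subunits of the respiratory chain and ATP synthase. The ribosomal RNAs come from mitochondrial DNA, whereas every ribosomal protein is encoded in the nucleus and imported. Some of the proteins descend from bacterial ribosomal proteins and others were added in mitochondria. In erythroblasts, mitochondria also carry out the first and last steps of heme synthesis.

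Of the 78 proteins, 51 were placed in the large subunit and 26 in the small subunit. Mrps18a and Mrps30 are large-subunit proteins despite their symbols. Mrps36, whose product is a component of the 2-oxoglutarate dehydrogenase complex, was placed in neither. Proteins with bacterial homologs numbered 45 and mitochondria-specific ones 32. Of the paralogs of bacterial S18, Mrps18c was counted with the former, and Mrps18b with the latter despite that relation. The genes lay on 17 chromosomes. Most were short, with lengths from 825 to 121712 bp and a median of 7690 bp, against 17169 bp over all protein-coding genes. Another coding gene lay within 5 kb of 60 of them. The start of a divergent coding gene lay within 1 kb of the start of 24, a head-to-head arrangement. These counts were not made over all genes. A start position was available in the RefSeq promoter table for 69 of the 78.

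The promoters of 6 genes are printed to show the sequence on which the main results rest. Each runs from 250 bases before the start to 30 bases after it on the coding strand (RefSeq, GRCm38.p6), and capitals mark matches to the motifs searched. Mrps27 (chr13:99344536-99344815, plus strand) held the strongest RUNX1 summit of the set in WT. Mrps12 (chr7:28741792-28742071, minus strand) held strong summits of both factors. Mrps17 (chr5:129715247-129715526, plus strand) lies on chromosome 5. Mrps11 (chr7:78782881-78783160, plus strand) shares its promoter with a second gene of the set, Mrpl46. Mrps25 (chr6:92183994-92184273, minus strand) had no RUNX1 peak in either list. Mrpl44 (chr1:79775768-79776047, plus strand) had a RUNX1 peak at its start in KO alone.
Mrps27: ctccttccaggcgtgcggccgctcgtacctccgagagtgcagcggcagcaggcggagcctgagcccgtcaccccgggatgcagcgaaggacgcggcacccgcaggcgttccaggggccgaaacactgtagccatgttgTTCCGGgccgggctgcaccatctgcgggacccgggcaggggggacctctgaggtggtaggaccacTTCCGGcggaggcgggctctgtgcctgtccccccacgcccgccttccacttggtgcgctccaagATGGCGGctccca
Mrps12: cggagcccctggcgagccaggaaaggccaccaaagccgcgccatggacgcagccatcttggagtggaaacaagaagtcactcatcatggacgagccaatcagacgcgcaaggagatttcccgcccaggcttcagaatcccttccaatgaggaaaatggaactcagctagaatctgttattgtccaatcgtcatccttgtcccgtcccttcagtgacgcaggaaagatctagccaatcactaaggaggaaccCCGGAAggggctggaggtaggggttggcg
Mrps17: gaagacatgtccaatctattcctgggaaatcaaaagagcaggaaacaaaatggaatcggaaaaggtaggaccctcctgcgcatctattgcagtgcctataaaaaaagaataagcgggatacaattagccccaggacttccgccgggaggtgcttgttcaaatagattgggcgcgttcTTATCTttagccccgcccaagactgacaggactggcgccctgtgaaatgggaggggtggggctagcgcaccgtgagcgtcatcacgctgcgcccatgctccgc
Mrps11: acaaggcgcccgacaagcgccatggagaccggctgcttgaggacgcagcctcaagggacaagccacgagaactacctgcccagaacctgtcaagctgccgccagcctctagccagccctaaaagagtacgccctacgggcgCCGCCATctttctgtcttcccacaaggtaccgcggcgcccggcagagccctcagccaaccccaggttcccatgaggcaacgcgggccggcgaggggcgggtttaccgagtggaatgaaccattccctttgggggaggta
Mrps25: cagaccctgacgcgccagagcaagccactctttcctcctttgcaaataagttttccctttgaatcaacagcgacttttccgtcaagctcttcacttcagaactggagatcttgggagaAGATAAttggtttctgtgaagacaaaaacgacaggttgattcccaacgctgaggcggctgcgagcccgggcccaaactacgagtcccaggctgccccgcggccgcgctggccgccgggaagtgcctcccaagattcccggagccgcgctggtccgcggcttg
Mrpl44: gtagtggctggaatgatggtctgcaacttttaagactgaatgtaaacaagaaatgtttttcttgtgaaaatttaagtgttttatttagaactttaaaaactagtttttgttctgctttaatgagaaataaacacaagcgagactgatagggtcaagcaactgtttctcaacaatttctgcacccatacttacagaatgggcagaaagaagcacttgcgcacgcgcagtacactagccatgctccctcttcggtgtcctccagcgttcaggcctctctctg
In the Mrps27 window, matches to the ETS motif CCGGAA began 112 and 47 bases before the start, both on the opposite strand, and a match to the YY1 motif ATGGCGG lay within the first 30 transcribed bases. The GATA motif AGATAA was matched 132 bases before the start of Mrps25 and, on the opposite strand, 73 bases before that of Mrps17. The Mrps11 window held a YY1 match on the opposite strand 109 bases before the start. The single match in the Mrps12 window was an ETS motif just past the start. The window searched ran to 50 bases past the start, and its last bases, which are not printed, completed an ETS match at Mrpl44 and a RUNX match at Mrps17.

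GATA2 peaks numbered 68199 in WT and 80611 in KO, RUNX1 peaks 28952 and 35281, and S2P peaks 163620 and 165206. Read totals per library were not used here, so peak strength is given as the number of fragments stacked at a summit, which was recovered from the deposited values. The median summit rested on 23 WT and 24 KO fragments for GATA2 and on 38 and 37 for RUNX1. Erythroblast identity was checked through S2P, which was present at 17 of 18 erythroblast marker genes in both genotypes, against 0 of 5 lymphoid, 1 of 5 mast cell, 1 of 6 megakaryocyte, 1 of 5 myeloid and 2 of 5 non-blood markers. Chd7 had no S2P coverage in either list, so it gave no check of the genotype.

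RUNX1 was present at nearly all of the mitochondrial ribosomal protein genes. RUNX1 summits were found inside or up to 5 kb from 70 genes in WT, or 89.7% (80.8 to 95.5), and 77 in KO, or 98.7% (93.1 to 100.0). Over all protein-coding genes the shares were 50.1% and 52.7%. The peaks were frequent without being stronger than elsewhere. The median strongest summit was 62.0 fragments in WT and 77.0 in KO, and over all genes with a peak it was 67.0 and 79.0. Large-subunit genes had RUNX1 in 47 of 51 in WT and 51 of 51 in KO, and small-subunit genes in 22 of 26 and 25 of 26. Genes of proteins with bacterial homologs numbered 40 of 45 with RUNX1 in WT and 45 of 45 in KO, and mitochondria-specific ones 29 and 31 of 32.

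**Figure D1:**
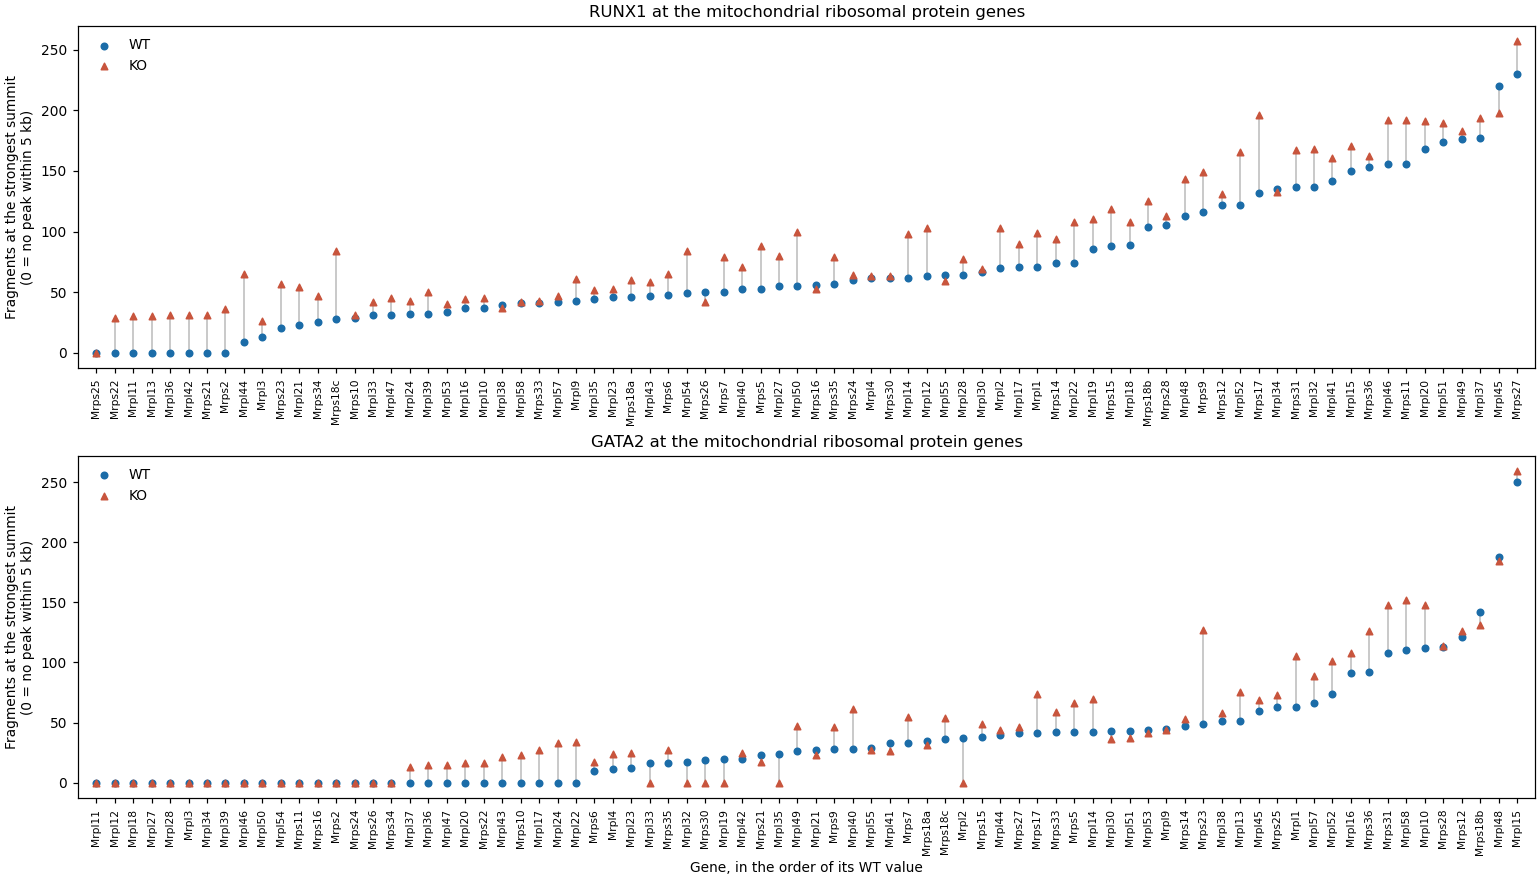
Fragments at the strongest RUNX1 (top) and GATA2 (bottom) summit within 5 kb of each of the 78 genes, in WT (circles) and KO (triangles), ordered by the WT value, with 0 where the list had no peak. RUNX1 was missing at 8 genes in WT and at Mrps25 alone in KO, whereas GATA2 was missing from both lists at 17.

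The strongest RUNX1 summits lay at genes of both subunits and differed little between the lists. Mrps27, a mitochondria-specific small-subunit protein, had 230 fragments in WT (201 to 262) and 257 in KO. Mrpl45, a mitochondria-specific large-subunit protein near the exit of the nascent chain, had 220 and 198. Mrpl37 had 177 and 194 fragments, and Mrpl49 176 and 183, both of them mitochondria-specific large-subunit proteins. The most fragments a summit could show was 286 in the WT and 282 in the KO list. At the other end, Mrpl3, a core protein of the large subunit, had 13 fragments in WT and 26 in KO, the fewest of any gene of the set with a peak at its start in both lists.

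The RUNX1 summits sat at the gene starts. Of the 69 genes with a known start, 58 in WT (84.1%) and 68 in KO (98.6%) had a summit within 1 kb of it, against 38.6% and 42.4% of all 17492 such genes. The median position of the strongest such summit was -35.5 bp from the start in WT and -31.5 bp in KO, negative values being upstream. Where a gene has several starts, the one of lowest coordinate within 1 kb of the summit was used, which need not be the nearest. The summit was within 250 bp of that start in 52 of 58 genes in WT and 60 of 68 in KO. Over all genes the medians were -60.0 and -55.0 bp, with 80.7% and 80.6% within 250 bp. At the 58 genes with a start peak in both lists the summits held from 13 to 230 fragments in WT, with a median of 55.0, and from 26 to 257 in KO, with a median of 68.5. The ranges of WT and KO overlapped over most of their length.

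**Figure D2:**
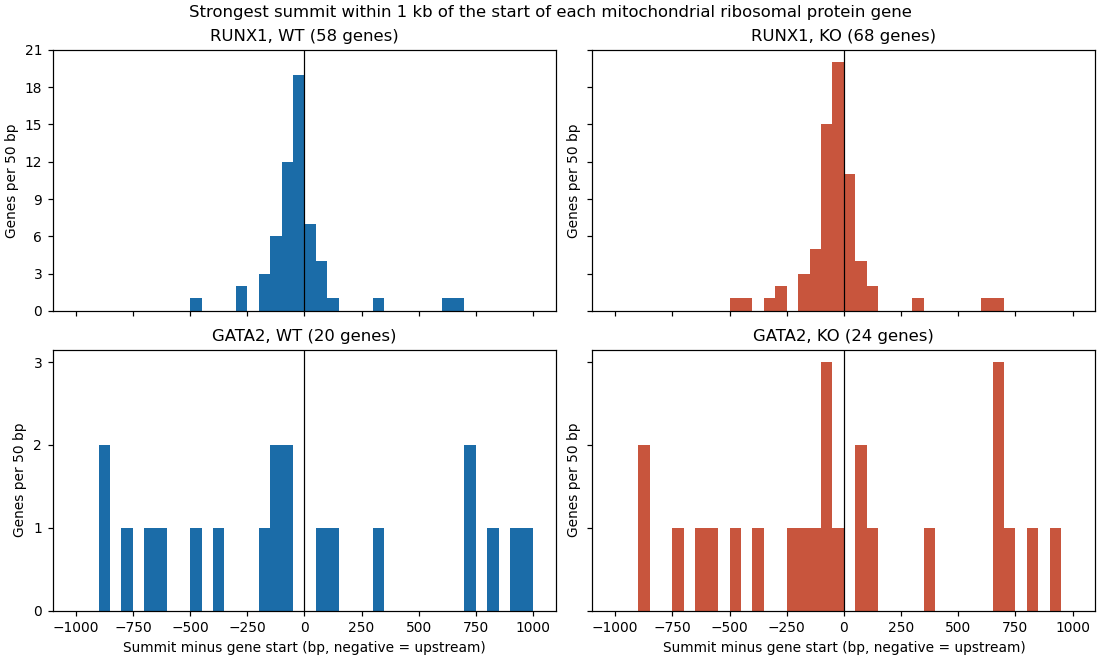
Distance in bp from the gene start to the strongest summit within 1 kb, as the number of genes per 50 bp, for each factor and genotype, with negative values upstream. RUNX1 summits gathered just upstream of the start, with 52 of 58 in WT and 60 of 68 in KO within 250 bp, while 7 of 20 and 10 of 24 GATA2 summits were.

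Head-to-head starts were part of this picture. Of the 24 genes with a head-to-head neighbour, 23 in WT and 24 in KO had RUNX1 at the start, with a median of 69.0 fragments in WT. Of the 45 others, 35 and 44 had it, with a WT median of 46.0. A single peak near both starts of such a pair counts for both genes, and which of them it serves cannot be told apart. Some partners also encode mitochondrial proteins. Mrps12, the protein of the decoding centre, starts 147 bp from Sars2, the mitochondrial seryl-tRNA synthetase, and its RUNX1 summit held 122 fragments in WT and 131 in KO. Mrpl43 starts 116 bp from Twnk, the mitochondrial DNA helicase, with 47 and 58 fragments. Mrpl47 starts 308 bp from Ndufb5, a subunit of respiratory complex I, with 31 and 45. Mrpl46 and Mrps11, one protein of each subunit, start 42 bp apart and share 1 RUNX1 peak of 156 WT and 192 KO fragments, which is counted for both.

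RUNX1 occupancy was also frequent at other active genes, so the shares were set beside genes of like polymerase coverage, measured on genes of 2 kb or longer as the part of their length under S2P peaks. Among genes with 50% or more in both lists, 25 of 27 mitochondrial ribosomal protein genes in WT (92.6%) and 26 in KO (96.3%) had RUNX1 within 5 kb, close to the 93.0% and 96.5% of all such genes. Among genes with coverage above 0 but under 50% in either list, RUNX1 was at 40 of 46 in WT, or 87.0% (73.7 to 95.1), and at all 46 in KO, or 100% (92.3 to 100). All such genes had it in 83.4% and 88.3%. The interval of the KO share lay above the share of all such genes, and that of the WT share held it. All genes between the quartiles of these lengths, whatever their coverage, had RUNX1 in 49.7% and 52.7%. Of these 4952 genes, 2611 had no S2P coverage in either list, so length was not compared at like coverage.

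**Figure D3:**
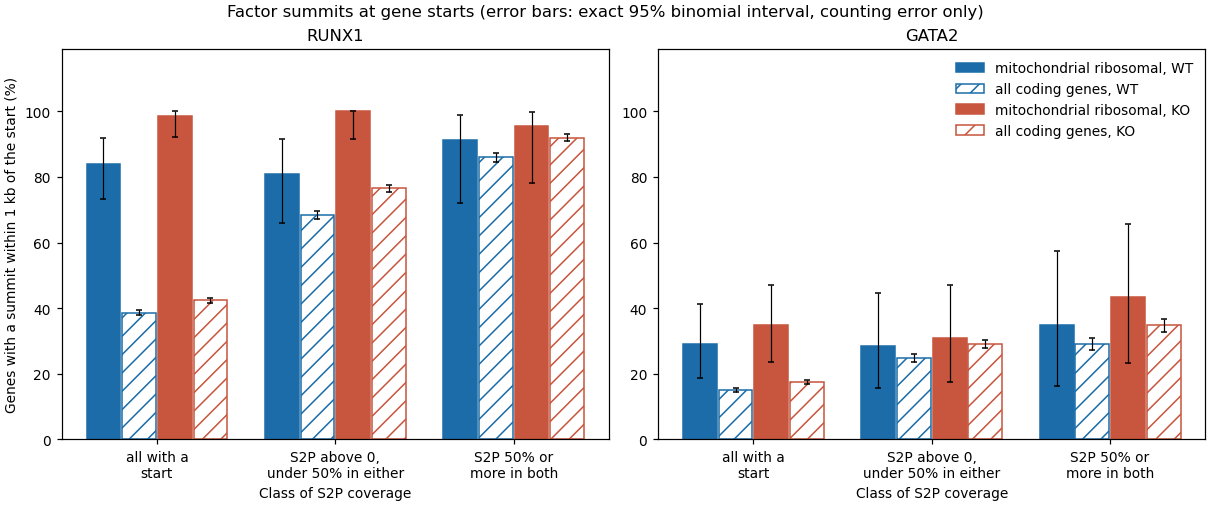
Percentage of genes with a RUNX1 (left) or GATA2 (right) summit within 1 kb of the start, for mitochondrial ribosomal protein genes (filled) and all protein-coding genes (hatched), in WT (blue) and KO (red), by class of S2P coverage, with exact binomial intervals that cover counting error only. For RUNX1 in WT the distance between filled and hatched bars was 84.1% against 38.6% over all genes with a start and 91.3% against 86.1% among genes with 50% or more S2P coverage.

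Each gene of the set with RUNX1 in 1 genotype alone had it in KO. Near the gene, 7 had RUNX1 in KO alone (8.97%, against 3.99% of all genes) and 0 in WT alone (against 1.34%). Mrps2, a core protein of the small subunit, had the most fragments at 36, followed by Mrpl36, Mrpl42 and Mrps21 at 31 each. Mrpl11, at the base of the large-subunit stalk, and Mrpl13 had 30 each. All of these were modest summits, below the median of the KO list for genes of the set. Within 1 kb of a start there were 10 genes with RUNX1 in KO alone (14.5%, 7.17 to 25), against 4.53% of all genes with a start. They were Mrpl11, Mrpl34, Mrpl36, Mrpl42, Mrpl44, Mrps2, Mrps5, Mrps21, Mrps22 and Mrps23. Among genes with any S2P coverage the share was 13.8% (6.53 to 24.7), and all such genes gave 8.25%, a value inside that interval. Mrps5 had the strongest of these start summits, with 88 fragments in KO. It was followed by Mrpl44, a protein with an RNase III-like fold, with 65 fragments in KO (50.2 to 82.8), and Mrps23 with 57, and in WT these 3 genes had RUNX1 peaks elsewhere in or near the gene of 53, 9 and 20 fragments. The KO list is the longer of the pair, and over all genes too RUNX1 was in KO alone more often than in WT alone.

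Where both lists had a peak, RUNX1 summits mostly held more fragments in KO. The strongest summit held more fragments in KO at 64 genes and fewer at 6 of the 70 with RUNX1 in both. These fragments were not scaled, and the peak shared by Mrpl46 and Mrps11 counted for both. The same count was not made over all genes, so it is not read as particular to the set. At the 98 summits paired one to one, each value was scaled by the lowest background in its list, 1.37 in WT and 1.39 in KO, to allow for depth. The median log2 ratio of KO over WT was then 0.30, with 83 of 98 above 0 (84.7%, against 70.8% of all paired RUNX1 summits), and the median over all paired summits was 0.19. The size depended on the scaling. Divided by the median over shared summits, the median was 0.08, against -0.03 over all, with 62 of 98 above 0 (63.3%, against 46.2%). Within 1 kb of a start, of the gene itself or of any other coding gene, 74 summits near these genes had a median of 0.30. All such summits had 0.27, with 87.8% and 85.0% above 0. The excess over the whole list was thus smaller among summits at starts. The ratios at single summits ran from -0.57, at a weak summit inside Mrps27, to 1.56 at the start of Mrps18c. The median local background at summits within 1 kb of any coding start was 9.24 fragments in WT and 8.44 in KO near these genes. Over all such summits it was 7.82 and 8.44, and its part in the ratio was not tested.

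Mrps25, a mitochondria-specific protein of the small subunit, was the exception to RUNX1 occupancy. No RUNX1 peak lay within 5 kb in either list. A GATA2 summit stood at its promoter, at -187 bp in WT and -179 bp in KO, with 63 and 73 fragments. The position is near the GATA match in the printed window. S2P peaks covered 100% of the gene in both lists, so a RUNX1 peak was absent from the lists at a gene with full polymerase coverage.

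GATA2 was found at fewer of these genes than RUNX1. GATA2 summits lay within 5 kb of 51 genes in WT, or 65.4% (53.8 to 75.8), and of 55 genes in KO, or 70.5% (59.1 to 80.3). The shares of all genes, 56.6% and 61.0%, were inside these intervals. Among genes between the same quartiles of length the shares were 47.4% and 52.8%. Among genes with 50% or more S2P coverage in both lists, GATA2 was at 19 of 27 in WT, or 70.4% (49.8 to 86.2), and at 21 in KO, or 77.8% (57.7 to 91.4), beside 83.0% and 88.0% of all such genes. Among those with coverage above 0 but under 50% in either, the shares were 67.4% (52.0 to 80.5) and 69.6% (54.2 to 82.3), against 82.7% and 87.2%, both above the intervals. A summit counted anywhere in the gene or within 5 kb, and length was not compared at like coverage. Within 1 kb of a start, GATA2 was at 20 genes in WT (29.0%, against 15.1% of all) and 24 in KO (34.8%, against 17.5%). Of these, 7 in WT (35.0%) and 10 in KO (41.7%) lay within 250 bp, against 23.3% and 22.9% of all genes with GATA2 at the start. The difference in start shares was smaller among genes with any S2P coverage. There they were 30.8% in WT, against 26.1% of all such genes, and 35.4% in KO, against 30.9%. GATA2 at a start in KO alone was found at 6 genes (8.70%, against 4.08%) and in WT alone at 2 (2.90%, against 1.60%). Among genes with any S2P coverage, 7.69% (2.54 to 17.0) had it in KO alone, against 7.01%.

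Of the 4 genes with the strongest GATA2 summits in WT, 1 had its summit at a known start. Mrpl15, a core large-subunit protein, had 250 fragments in WT (220 to 283) and 259 in KO. Its summit lay outside the gene, and Mrpl15 had no start in the promoter table, so distance to a start was not scored. Mrpl48, a mitochondria-specific large-subunit protein, had 188 and 184, at a summit inside the gene and not within 1 kb of any of its 4 starts. It also had the most GATA2 peaks of the set, 9 in WT and 11 in KO. Mrps18b, one of the paralogs of bacterial S18, had 142 and 131 fragments. Mrps12 had 121 and 126 at a summit 102 bp past the start in WT, and was the gene among these with GATA2 at a known start. By the sum over both lists, Mrps28 (7 and 11 peaks) and Mrpl1 (7 in both) came next in number of GATA2 peaks. After them Mrpl45 (4 and 6), Mrps9 and Mrps18b (5 and 5 each) and Mrps36 (3 and 7) had equal sums.

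GATA2 was present in KO alone at 10 genes (12.8%, against 7.35% of all genes) and in WT alone at 6 (7.69%, against 2.90%). The summits in KO alone were led by Mrpl22 with 34 fragments, Mrpl24 with 33, Mrpl17 with 27, Mrps10 with 23 and Mrpl43 with 21, with Mrpl20 and Mrps22 at 16 each. In WT alone they were Mrpl2, a core protein near the peptidyl transferase centre, with 37, Mrpl35 with 24, Mrpl19 with 20, Mrps30 with 19, Mrpl32 with 17 and Mrpl33 with 16. All 6 of the latter were large-subunit proteins, as are 51 of the 78. All of the summits named here lay below the medians of 42.0 in WT and 47.0 in KO for the strongest GATA2 summit of genes with a peak. At 93 GATA2 summits paired one to one the median log2 ratio of KO over WT was 0.24, with 66 above 0 (71.0%, against 60.8% of all paired summits), and the median over all was 0.11. Divided by the median over shared summits, the value was 0.08, against -0.05 over all, with 52 of 93 above 0 (55.9%, against 44.7%). With fold enrichment in place of fragments it was 0.02, against 0.10, so the excess over all summits did not hold under that measure. By fragments scaled to the lowest background, summits within 1 kb of any coding start had 0.28 for 25 near these genes and 0.21 for all.

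Peaks near these genes were mostly shared between genotypes. Of the GATA2 peaks, 95 of 107 WT peaks (88.8%, 81.2 to 94.1) and 94 of 144 KO peaks (65.3%, 56.9 to 73.0) overlapped a peak of the other genotype, beside 81.5% and 68.8% of the whole lists. Of the RUNX1 peaks, 112 of 118 WT peaks (94.9%, 89.3 to 98.1) and 105 of 145 KO peaks (72.4%, 64.4 to 79.5) did, against 86.6% and 69.6%. The WT interval lay above the share of its whole list, but not above that of start peaks. All WT RUNX1 peaks within 1 kb of any coding start were shared in 95.9%, a value inside that interval. Those near these genes and within 1 kb of a start were shared in 97.7% (92.0 to 99.7). At an overlap of 50% of each peak, the shares of all RUNX1 peaks near these genes were 76.3% in WT and 62.1% in KO, against 76.5% and 62.8%. Peaks without a counterpart were weaker, with a median of 17.0 fragments in WT and 18.5 in KO for GATA2 and of 36.5 and 24.0 for RUNX1. Many are also near other genes, since 68 of 118 RUNX1 summits and 47 of 107 GATA2 summits in WT lay within 5 kb of another coding gene.

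RUNX1 at these genes mostly stood without GATA2. Of the RUNX1 peaks, 31 of 118 WT peaks, or 26.3% (18.6 to 35.2), and 40 of 145 KO peaks, or 27.6% (20.5 to 35.6), overlapped a GATA2 peak of the same genotype. Over all RUNX1 peaks the shares were 53.9% and 52.4%. This went with their place at starts. All RUNX1 peaks within 1 kb of any coding start overlapped GATA2 in 14.6% and 18.0%. Peaks near these genes and within 1 kb of a start, their own or a neighbour's, did so in 18.2% (10.8 to 27.8) and 17.6% (10.8 to 26.4). At the level of genes, 47 in WT and 54 in KO had both factors within 5 kb, and 41 had both in both genotypes. In WT 4 genes had neither factor, and in KO 0. None of these gene counts was made over all genes, so they give no comparison with genes in general. Mrps12 was the clearest case of both at 1 promoter, with RUNX1 at -53 bp and GATA2 at 102 bp from the start in WT.

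The 4 genes on chromosome 5 were looked at together because fragment ratios on that chromosome were raised as a whole. Over all paired summits the median log2 ratio of KO over WT was 0.46 for GATA2 and 0.56 for RUNX1 on chromosome 5, and 0.09 and 0.17 on the other chromosomes. The genes of the set there had a median of 0.63 for GATA2 over 11 summits, 7 at Mrpl1, 3 at Mrps18c and 1 at Mrps17. For RUNX1 it was 0.50 over 8 summits, 4 of them at Mrpl1, 2 at Mrpl33 and 1 each at Mrps17 and Mrps18c. At the genes of the set elsewhere the medians were 0.21 and 0.27. Mrps17, a core small-subunit protein, had 132 RUNX1 fragments in WT and 196 in KO at its start, and 41 and 74 of GATA2. Mrps18c, a small-subunit paralog of S18, had 28 and 84 of RUNX1, a log2 ratio of 1.56. Mrpl1, which forms a mobile stalk of the large subunit, had 71 and 99 of RUNX1 at its start, and 35 and 105 of GATA2 at a summit at -612 bp in WT. Mrpl33 had 31 and 42 of RUNX1. Without chromosome 5 the medians over all genes of the set were 0.21 for GATA2 and 0.27 for RUNX1. Copy number was not measured, and its part in these ratios was not tested.

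S2P peaks overlapped every gene of the set of at least 2 kb, in at least 1 list. An overlap of any size counted, and by this rule 9986 of all 19304 genes of that length had coverage. The overlap was small at some genes of the set, such as Mrps33 with 0% in WT and 2.32% in KO. The 73 genes of the set of at least 2 kb had a median S2P coverage of 42.0% of their length in WT (quartiles 19.6 and 64.4) and 43.0% in KO (22.5 and 66.0). The medians over all 19304 genes were 0.0532% and 0.160%. Coverage of 50% or more was found at 32 in WT (against 16.7% of all genes), 28 in KO (against 17.1%) and 27 in both (37.0%, against 15.8%). The median was 41.9% in WT and 44.9% in KO for the large subunit, and 39.6% and 34.3% for the small subunit. Mrpl24 and Mrps25 were covered over 100% in both lists, and 8 genes in WT and 9 in KO were under 10%. Among the latter were Mrps12, with 0.688% in WT and 1.70% in KO, and Mrps11, with 3.50% and 2.22%, both with strong RUNX1 summits at the start. Across 55 genes with a start peak, Spearman's rho between WT RUNX1 fragments at the start and WT S2P coverage was -0.08. Over 5878 coding genes rho was 0.12, but these were limited to genes with WT coverage above 0. The 55 were not so limited and included Mrpl28 and Mrps33 at 0% in WT. Each rho is a description across genes of the same libraries.

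The coverage lay towards the ends of the genes. In 63 genes with a known start and coverage, the median share of the first of 3 equal parts of the gene under S2P peaks was 17.5% in WT and that of the last was 58.7%, and 85.1% of the 3 kb past the gene end was covered. In KO the values were 15.4%, 72.0% and 89.2%. All genes with coverage had the same order, with 13.6%, 49.6% and 77.2% in WT and 12.6%, 55.5% and 80.4% in KO. Since 60 of the 78 genes have a coding neighbour within 5 kb, signal past a gene end cannot be told apart from that of a neighbour.

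S2P coverage differed little between WT and KO. The median difference, KO less WT, was 0.552 percentage points at these genes and 0.667 over all genes with coverage. It was above 0 at 39 and below 0 at 32 of 73 (53.4% higher, against 61.0% of all genes higher and 37.2% lower). A rise of 10 points or more was found at 4 genes (5.48%, against 5.76%) and a fall of that size at 9 (12.3%, against 3.91%). Genes of like length had such falls in 8.97% and rises in 7.30%. The falls were led by Mrpl27, a core protein next to the peptidyl transferase centre, from 64.4% in WT to 45.4% in KO, Mrpl20 from 57.1% to 38.2%, Mrps24 from 42.1% to 24.2% and Mrpl40 from 34.1% to 18.6%. Large-subunit genes made up 8 of the 9, from 48 of the 73 genes. The rises were at Mrpl10, a stalk protein, from 25.1% to 51.4%, Mrpl32 from 30% to 49.3%, Mrps31 from 10.1% to 23.4% and Mrpl13 from 16.5% to 27.0%. Each of these is a single pair of values with no replicate check.

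**Figure D4:**
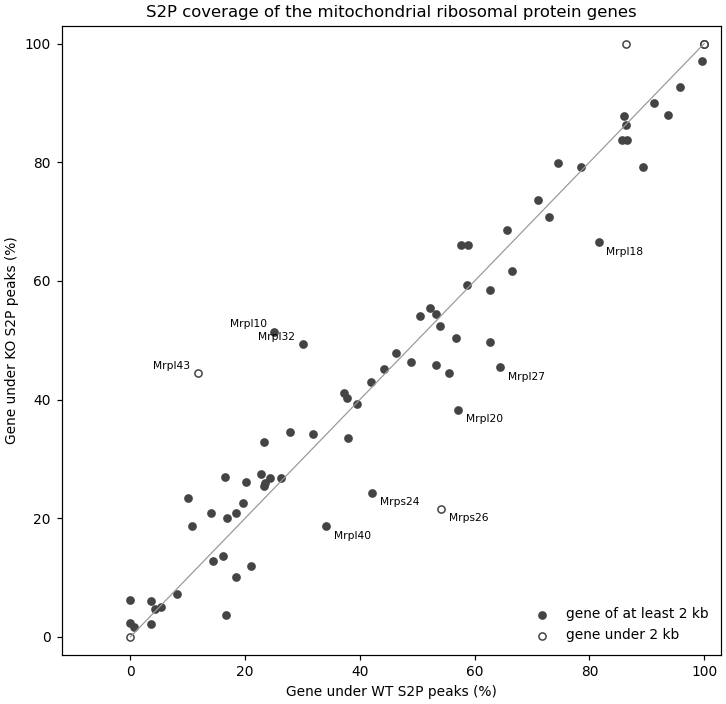
Percentage of each gene under S2P peaks in WT (x axis) and KO (y axis), with genes of at least 2 kb as filled and shorter ones as open points, and the line of equal coverage. Most points lie along the line, with a median difference of 0.552 percentage points, and the named genes lie farthest from it.

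The promoters were searched for motifs, which the choice by symbol did not use. Windows of 300 bases, from 250 before to 50 after each start, were searched on both strands in 75 windows of the 69 genes and in 21263 windows of all genes. The ETS motif CCGGAA, a core bound by ETS family factors, was present in 57.3% of the windows of these genes, against 18.7% of all windows and 34.6% of windows of genes with RUNX1 at the start in both lists. The YY1 motif ATGGCGG was present in 17.3%, against 5.25% and 10.4%, and the NRF1 motif GCATGCG, of a known regulator of nuclear genes for mitochondrial proteins, in 10.7%, against 4.44% and 7.49%. The GATA motif AGATAA was present in 14.7%, against 9.65% and 5.83%. The RUNX motif TGTGGT was no more frequent, with 12.0% against 15.0% and 11.9%. The YY1, NRF1 and GATA shares of these genes rest on 13, 8 and 11 windows, and no intervals were computed for the motif shares. Matches of different motifs that overlap were counted for each, and a match is a description of the letters, not a bound site.

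**Figure D5:**
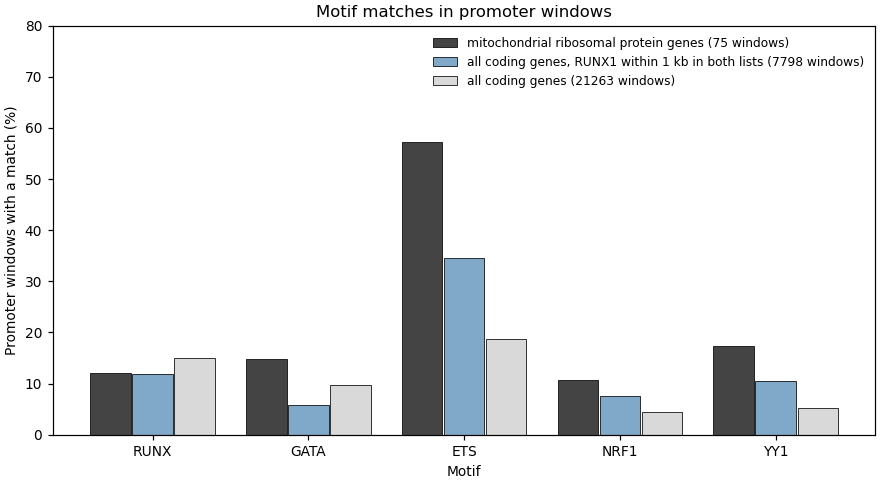
Percentage of promoter windows of 300 bases with at least 1 match to each motif on either strand, for mitochondrial ribosomal protein genes (dark), all genes with RUNX1 within 1 kb of the start in both lists (blue) and all protein-coding genes (light). The ETS motif stands at 57.3% in the first set, against 34.6% and 18.7%, and the RUNX motif at 12.0%, against 11.9% and 15.0%.

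The ETS matches lay close to the starts and to the RUNX1 summits. Of 61 matches, 55 were within 100 bp of the start. Matches were counted per window, so a site in overlapping windows of a gene, as at Mrpl2 and Mrps16, can count more than once. The same share was not computed over all windows, so closeness to the start is not read as particular to these genes. In 37 windows with both a match and a RUNX1 summit, the median distance between the summit and the nearest match was 49.5 bp. At Mrps27 the summit lay at -41 bp in WT. Since both lie near starts, this distance does not show whether they are related. Summit strength did not follow the match, with median WT fragments at the start of 55.0 in genes with an ETS match and 60.0 in those without. Of 40 genes with a match, 35 had RUNX1 at the start in WT, and 23 genes had it without a match. Median base composition of these windows was 58.7% G and C, against 56.3% over all windows and 62.0% over windows of genes with RUNX1 at the start in both lists, and its part in the match shares was not tested.

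Related gene groups had RUNX1 in similar shares and ranged widely in polymerase coverage. RUNX1 lay within 5 kb of 80 WT and 84 KO genes of 89 for cytosolic ribosomal proteins, 38 and 38 of 40 for proteasome subunits, and 59 and 61 of 62 for other genes of mitochondrial translation. GATA2 was at 62 and 69 of 89, 31 and 33 of 40, and 55 and 57 of 62. The share of the mitochondrial translation genes, 88.7% in WT (78.1 to 95.3), lay above the interval of the mitochondrial ribosomal protein genes. Gene length was not matched in this comparison. S2P coverage of 50% or more in both lists was found at 69 of 74 cytosolic ribosomal protein genes, 24 of 40 proteasome genes and 19 of 59 mitochondrial translation genes, beside 27 of 73 here. Dap3, a small-subunit GTP-binding protein outside the Mrp naming, had 188 WT and 221 KO RUNX1 fragments, and Lrpprc, which stabilises mitochondrial mRNAs, had 245 and 260. Gfm2, a mitochondrial elongation factor that acts in ribosome recycling, had no RUNX1 peak in either list and S2P coverage of 35.3% and 40.2%.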

How the data were processed

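GATA2, RUNX1 and S2P ChIP-seq of G1ER cells comprised 14 samples, 8 immunoprecipitated and 6 input, in 6 deposited peak lists, 1 per target and genotype. Bowtie2 2.2.1 and MACS2 2.1.0 are named per the submitters' processing notes, without their roles, and the input used with each list is not stated. The lists have no header, so columns were checked on their values. The deposited score is a whole number per peak and the deposited fold enrichment is a ratio over the local background. The authors deposited −log10 p and −log10 q per peak, with list limits at a q-value of about 0.05, and the deposited summit is an offset in bp, all made by the authors.

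Fragments at each GATA2 and RUNX1 summit were recovered from the deposited fold and −log10 p under a Poisson model with a pseudocount, and 100% of summits gave whole numbers within 0.005 of the deposited −log10 p. The recovery was tested on simulated data. Fragments have a ceiling at a multiple of the smallest peak width, 282 to 286. Intervals are exact Poisson for fragments and exact Clopper-Pearson for shares. The labels name no molecular identifiers, so reads may not be independent molecules, and intervals cover counting error only.

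Genes, starts and promoters came from RefSeq (GRCm38.p6), and 69 genes of the set matched a start. A gene had a factor when a summit lay in it or within 5 kb. Peaks were shared at an overlap of 1 bp. S2P coverage was computed for genes of at least 2 kb, since S2P fragments were not recovered. Software was Python 3.11.15, pandas 2.3.3, numpy 2.4.6, scipy 1.17.1 and matplotlib 3.10.9. Alternatives covered windows, overlap, limits, scaling and chromosome 5.

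The genes and the comparison lists were chosen with earlier results of these data known. The rule for named genes took, per factor, the 4 strongest WT summits and the 4 with most GATA2 peaks, genes without RUNX1, genes with a factor in 1 genotype alone (up to 6), the 4 largest S2P differences in each direction and the genes on chromosome 5. Other genes named, and the subunit and origin classes, which follow standard nomenclature, were chosen after their values were seen. Ict1 is listed as Mrpl58 and was counted in the set, which left 62 mitochondrial translation genes.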

Additional observations from a re-analysis of the deposited data

How the results depend on the processing

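Of 61 alternative values, 43 kept their direction and stayed within 1.5 times the value reported (counts) or inside its 95% interval (shares and medians), 17 moved further and 1 reversed. Taking the same number of strongest peaks from both lists of a factor left RUNX1 at 44 genes in WT and 53 in KO, and at the start of 33 in WT and 43 in KO, with GATA2 at 35 genes in KO and at the start of 13 in WT and 14 in KO. This alternative keeps fewer peaks by construction, and RUNX1 remained more frequent than over all genes (37.7% in WT and 39.0% in KO). With a start window of 500 bp, GATA2 was at 11 starts in WT and 14 in KO. Requiring a 50% overlap lowered shared RUNX1 peaks to 76.3% in WT and 62.1% in KO.

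The log2 ratio depends on scaling. Divided by the median over shared summits, it was 0.08 for GATA2 and 0.08 for RUNX1, against -0.05 and -0.03 over all summits. With fold enrichment, an alternative added after seeing the data, it was 0.02 and 0.23, against 0.10 and 0.14 over all summits, so that for GATA2 these genes then lay below all summits. The cause was not tested. S2P coverage of 75% or more was found at 13 genes in WT and 13 in KO, and of 25% or more at 52 in KO. The median S2P difference became -0.116 points once the median over all genes was subtracted. The start counts at equal numbers of peaks, and at −log10 q of at least 3, were also added after seeing the data.

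No paired analysis was possible because each S2P list holds both replicates and each factor had 1 library per genotype. Library depth is unknown from peak lists.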
